A study of Mus musculus with 8 samples.

Results

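Actin cytoskeleton and contractile genes were followed by RNA sequencing in cultured mouse fat cells exposed to DoxSa. The set was a list of 33 genes chosen by name: 10 genes of the smooth-muscle type, 3 genes that make muscle and non-muscle forms by splicing, 13 ubiquitous isoforms, 4 adhesion and cross-linking proteins, and the transcription factor SRF with its 2 cofactors. All 33 were found among the 22962 genes of the deposited table, and all 33 passed the minimum of a mean of 0.5 FPKM over the 8 libraries (12060 genes in all). FPKM divides the reads of a gene by transcript length and by the library total, which lets levels of different genes be compared per length.

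The cells were wild-type stromal vascular fraction, the mixed cells of gonadal fat that remain without the floating adipocytes, differentiated into adipocytes in culture. One group of 4 libraries received DoxSa on day 6 and the other group of 4 the solvent DMSO. The labels do not spell out DoxSa; the title of the series concerns 1-deoxysphingolipids. Nor do they say whether the libraries of a group came from separate cultures or animals, so a p-value here weighs the difference only against the spread among these libraries, which may be technical.

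Actin filaments and myosin motors give a cell its tension. Smooth muscle cells and myofibroblasts add dedicated isoforms of actin, myosin, calponin, transgelin and tropomyosin to the isoforms that every cell makes. Many of these genes carry CArG boxes, the binding sequence of SRF, and SRF drives them together with the cofactors MRTF-A and MRTF-B (genes Mrtfa and Mrtfb), which stay in the cytoplasm bound to monomeric actin and enter the nucleus when actin polymerises. In fat progenitors, stress fibres break down during adipocyte differentiation, and MRTF activity is known to oppose that differentiation.

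The library totals behind the FPKM values lay between 39213008 and 41365861 reads. Adipocyte genes were abundant in every library, with Adipoq, the gene of adiponectin, at 772 ± 19.2 FPKM in DoxSa and 774 ± 29.8 FPKM in DMSO (SD, n = 4 each). Of the 8 adipocyte markers 7 had a negative log2 fold change (median over the 8 -0.08), and 1 was called: Retn, the gene of resistin, was lower at 337 ± 3.93 FPKM in DoxSa and 387 ± 20.8 FPKM in DMSO (-0.20 ± 0.04 on the log2 scale, SE; adjusted p = 0.0151), but not when low values were not filtered (adjusted p = 0.065). The 8 macrophage markers summed to between 5857 and 6307 FPKM in DoxSa and between 5257 and 6135 FPKM in DMSO, so macrophage transcripts were present in both groups. Of these 8, 0 had a negative log2 fold change (median 0.11, from 0.00042 for Csf1r to 0.33 for Fcgr1). Of those markers Ptprc and Fcgr1 were called higher in DoxSa (adjusted p = 0.0301 and 0.0388), and both calls were lost with no filter on low values and without DoxSa 1, DoxSa 2 or DoxSa 3, among other settings. Their part in the results below was not tested. Of 8 smooth muscle and pericyte markers, 5 were tested, and 3 of those had a negative log2 fold change. Pdgfrb was called lower, by -0.23 ± 0.04 in log2 fold change (SE, adjusted p = 0.00383), while 4 tested markers were not called. Cspg4 (0.11) and Abcc9 (0.19) went the other way. Abcc9 did not overlap between the groups and was called higher by voom (adjusted p = 0.0199) and with no intensity trend (adjusted p = 0.046). The pericyte markers Rgs5, Kcnj8 and Higd1b were near 0, below the minimum in level. The 8 markers summed to between 48.7 and 50.4 FPKM in DoxSa and between 52.2 and 56.9 FPKM in DMSO. Pdgfrb alone had means of 25.6 FPKM in DoxSa and 30.3 FPKM in DMSO. The part of these markers was not tested either. Mesothelial markers, of which 5 of 7 listed were found, summed to between 11.1 and 15.6 FPKM in DoxSa and between 16.3 and 16.9 FPKM in DMSO. Nearly all of that was Krt19, with means of 13.9 FPKM in DoxSa and 16.5 FPKM in DMSO and no overlap. Msln, Upk3b, Lrrn4 and Krt18 were near 0, below the minimum in level. Endothelial markers summed to between 2.09 and 2.32 FPKM in DoxSa and between 1.55 and 1.95 FPKM in DMSO. Both lists held 1 tested gene, which was not called. The 6 tested fibroblast markers were not called, and 4 of them had a negative log2 fold change (median -0.05, from -0.25 for Cd34 to 0.31 for Ly6a). Without DoxSa 2, Cd34 was called lower (adjusted p = 0.0298). In bulk samples, fewer cells of a type and less RNA per cell cannot be told apart.

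CArG boxes, here CC, then 6 bases that are each A or T, then GG, a pattern that is the same on both strands, were looked for in RefSeq promoters (build GRCm38.p6, 250 bases before to 50 after each gene start). Of the 33 genes 29 had a promoter there, and 6 of the 29 (20.7%) held at least 1 perfect box, against 488 of all 27025 genes (1.81%). The 33 genes were chosen by name, and many such genes are known to carry these boxes. This contrast with all genes therefore does not bear on DoxSa. The 6 are shown because they cover both genes that fell and genes that were not called; capitals mark the box, and each stretch is read 5′ to 3′ on the gene's strand.
Myl9: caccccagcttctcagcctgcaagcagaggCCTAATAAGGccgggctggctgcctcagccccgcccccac
Cnn2: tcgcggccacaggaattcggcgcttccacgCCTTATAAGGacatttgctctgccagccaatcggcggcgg
Vcl: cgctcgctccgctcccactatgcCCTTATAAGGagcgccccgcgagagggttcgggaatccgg
Actg1: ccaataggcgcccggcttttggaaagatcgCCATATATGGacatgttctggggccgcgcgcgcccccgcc
Myl6: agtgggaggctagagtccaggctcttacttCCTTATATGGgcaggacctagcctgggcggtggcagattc
Srf: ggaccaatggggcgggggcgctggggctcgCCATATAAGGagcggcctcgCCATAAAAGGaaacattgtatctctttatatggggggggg

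The Myl9 stretch lies at chr2:156775273-156775342 on the plus strand, with its box beginning 161 bases before the gene start. That of Cnn2 lies at chr10:79988514-79988583 (plus, box 56 bases before the start) and that of Vcl at chr14:20929148-20929210 (plus, 227 bases before). The genes not called were Actg1 at chr11:120348546-120348615 (minus, 90 bases before), Myl6 at chr10:128493020-128493089 (minus, 50 bases before the more downstream of 2 listed starts) and Srf at chr17:46556185-46556274 (minus, boxes 82 and 62 bases before). Among the 14 matched genes called lower, 3 held a box, and among the 14 matched genes not called, also 3. The genes with no promoter there, Actb, Actg2, Myh11 and Tagln, are outside these counts, and all of them but Actb were called lower. A match is a run of letters and no more. For genes without one, Cnn1 and Acta2 among them, only this window was searched, and a box with any base off the pattern was not counted.

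Expression in DoxSa was set against that in DMSO for every gene. Of the 33 genes, 17 were lower in DoxSa, 1 was higher and 15 were not called (limma on log2(FPKM + 1), Benjamini-Hochberg adjusted p under 0.05 over all 12060 genes, n = 4 per group). Over all tested genes 5.90% were called, 2.02% lower and 3.88% higher. The groups did not overlap for 20 of the 33 genes, of which 19 were lower and 1 higher. Of all tested genes 12.5% did not overlap, 4.71% lower and 7.80% higher. The median log2 fold change was -0.15 over the 33 genes and 0.01 over all tested genes. Fold changes on this scale understate those of genes at low levels, and not only near or below 1 FPKM. Lmod1, with means of 2.94 FPKM in DoxSa and 5.09 FPKM in DMSO, had -0.63 on this scale. With 0.1 rather than 1 added to each FPKM, Lmod1 had -0.77. Of the 18 calls, 14 held in each of the 18 other settings that tested the gene; Mylk, Actn4, Cnn3 and Tagln2 lost theirs in some, as given beside them.

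**Figure D1:**
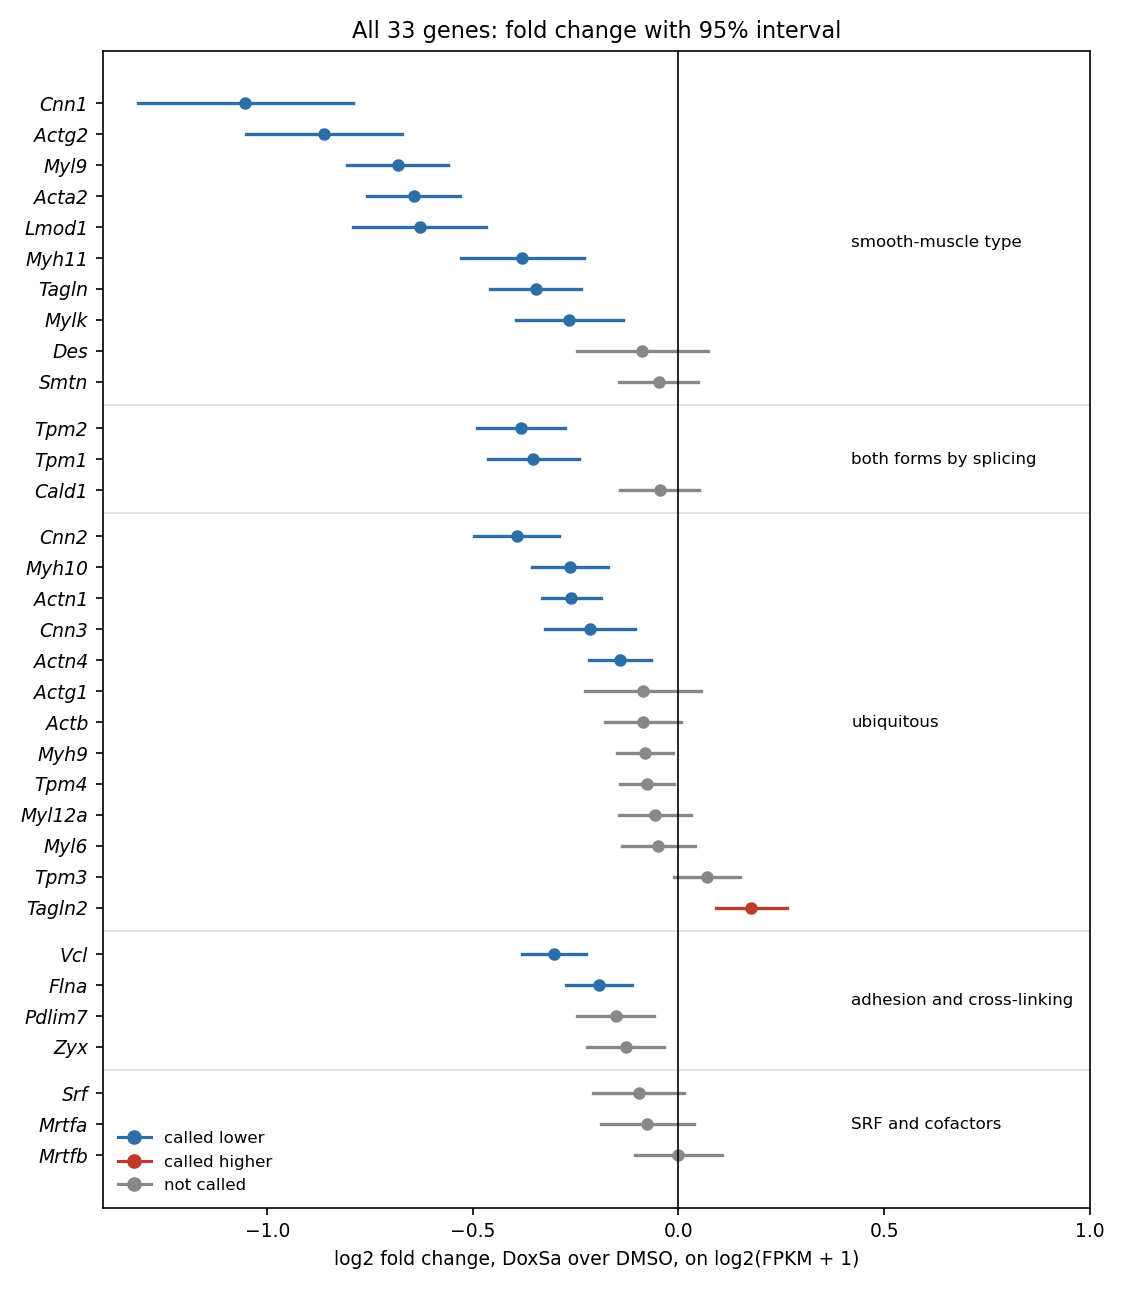
Log2 fold change of DoxSa over DMSO on log2(FPKM + 1) (horizontal axis) for all 33 genes, as points with 95% intervals of the moderated fit, grouped by class. The smooth-muscle-type genes reach furthest to the left, Cnn1 at -1.05, while Tagln2 at 0.18 is the only gene called higher; Srf, Mrtfa and Mrtfb lie between -0.10 and 0.00.

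The smooth-muscle-type genes fell furthest. Of 10 genes 8 were called lower and 0 higher, with a median log2 fold change of -0.50, and those 8 did not overlap between the groups. Over all tested genes 2.02% were called lower, and 4.71% were lower without overlap. Cnn1, which encodes the calponin of smooth muscle, an actin-binding inhibitor of myosin, measured 3.25, 4.41, 4.75 and 5.52 FPKM in DoxSa 1 to 4, against 9.62, 12.2, 10.3 and 9.09 FPKM in DMSO 1 to 4. Every DoxSa library lay below every DMSO library, with DoxSa 1 lowest and DMSO 2 highest. The mean in DoxSa was 43.5% of the mean in DMSO, and the fitted change on log2(FPKM + 1) was -1.05 ± 0.12 (SE; adjusted p = 6.47e-04). Cnn1 was number 1 of the 244 genes called lower when these were ordered by log2 fold change on this scale, which holds back genes at low levels.

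The smooth muscle actins fell too. Acta2, the gene of smooth muscle alpha-actin and the usual marker of myofibroblasts, measured 172, 191, 190.1 and 184 FPKM in DoxSa 1 to 4, against 279, 309, 299 and 267 FPKM in DMSO 1 to 4. No DoxSa library reached the lowest DMSO library. The log2 fold change was -0.64 ± 0.05 (SE, adjusted p = 9.53e-05), a mean 36.2% lower in DoxSa. Actg2, the gene of the gamma-actin of visceral smooth muscle, measured 5.48, 7.20, 6.24 and 6.02 FPKM in DoxSa 1 to 4, against 11.3, 14.5, 11.3 and 11.5 FPKM in DMSO 1 to 4. DMSO 2 stood above the other DMSO libraries, which lay close together and still well above all DoxSa libraries. The log2 fold change was -0.86 ± 0.09 (adjusted p = 2.91e-04), and the mean in DoxSa was 51.2% of that in DMSO.

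The muscle-type myosin genes differed in level by orders of magnitude but shared the direction. Myl9, which encodes the regulatory light chain whose phosphorylation starts contraction, measured 72.9, 76.9, 81.0 and 80.2 FPKM in DoxSa 1 to 4, against 122, 131, 136 and 113 FPKM in DMSO 1 to 4. The gap between the groups was wider than the range within either. Its log2 fold change was -0.68 ± 0.06 (SE, adjusted p = 9.53e-05). Myh11, the gene of the smooth muscle myosin heavy chain and the most restricted marker of that lineage, was barely expressed, at 0.330, 0.389, 0.395 and 0.5002 FPKM in DoxSa 1 to 4 and 0.847, 0.970, 0.626 and 0.874 FPKM in DMSO 1 to 4. Those values rest on 91 to 254 reads per library. Its mean in DoxSa was 48.6% of that in DMSO, while on the log2(FPKM + 1) scale, which compresses such low values, the log2 fold change was -0.38 ± 0.07 (adjusted p = 0.00916).

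Mylk, which encodes the kinase that phosphorylates the light chain, measured 6.36, 6.67, 7.02 and 5.87 FPKM in DoxSa 1 to 4, against 8.20, 7.94, 8.53 and 7.26 FPKM in DMSO 1 to 4. The groups did not overlap, but the gap between DoxSa 3 and DMSO 4 was small. The log2 fold change was -0.26 ± 0.06 (SE, adjusted p = 0.0243). It was no longer called when any single library other than DMSO 4 or DoxSa 3 was left out (adjusted p between 0.0527 and 0.0686), or when low values were not filtered (adjusted p = 0.0974).

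Tagln, the gene of transgelin (SM22), an early marker of contractile cells that bundles actin, was the most abundant gene of the smooth-muscle type. It measured 229.7, 265, 257 and 238 FPKM in DoxSa 1 to 4, against 301, 325, 329.9 and 304 FPKM in DMSO 1 to 4. The highest DoxSa library stayed below the lowest DMSO library, and the log2 fold change was -0.35 ± 0.05 (SE, adjusted p = 0.00288). Lmod1, which encodes leiomodin 1, a protein that starts actin filaments in smooth muscle, measured 2.67, 3.25, 2.65 and 3.19 FPKM in DoxSa 1 to 4, against 4.79, 5.89, 4.94 and 4.76 FPKM in DMSO 1 to 4. Again no library of one group entered the range of the other. For Lmod1 the log2 fold change was -0.63 ± 0.07 (adjusted p = 7.72e-04).

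Smtn and Des did not pass the test. Smtn, the gene of smoothelin, a protein of contractile filaments, measured 8.04 ± 0.290 FPKM in DoxSa and 8.35 ± 0.378 FPKM in DMSO (SD, n = 4 each), a log2 fold change of -0.05 (95% interval -0.15 to 0.05, adjusted p = 0.61). Des, the gene of the muscle intermediate filament desmin, measured 0.954, 0.928, 0.949 and 0.884 FPKM in DoxSa 1 to 4, against 0.926, 1.41, 0.946 and 0.956 FPKM in DMSO 1 to 4. DMSO 2 alone stood apart, and the other 3 DMSO libraries lay within or beside the DoxSa range. The log2 fold change was -0.09 (95% interval -0.25 to 0.07, adjusted p = 0.568).

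**Figure D2:**
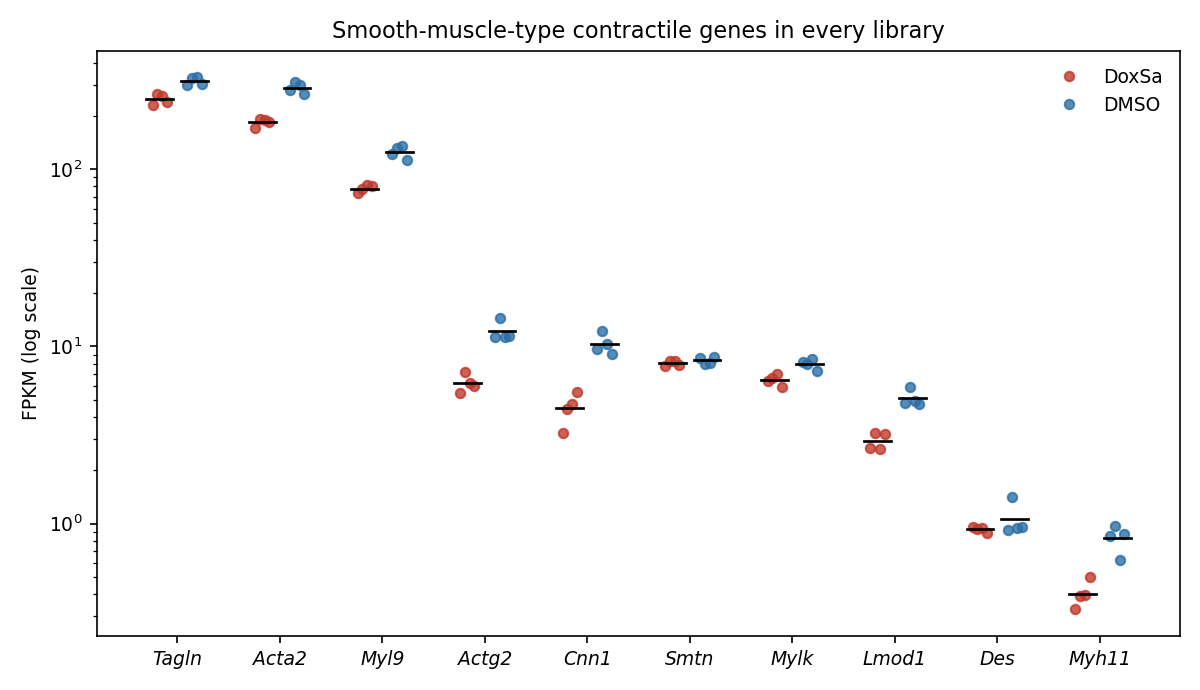
FPKM on a log scale for the 10 smooth-muscle-type genes, 1 point per library (4 DoxSa left, 4 DMSO right of each pair) with the group mean as a bar, ordered by the mean in DMSO. The groups are apart for 8 genes, from Tagln at 248 and 315 FPKM (means in DoxSa and DMSO) to Myh11 at 0.403 and 0.8291 FPKM, and overlap for Smtn and Des.

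Tropomyosins lie along actin filaments and decide which motors and severing proteins can reach them; caldesmon, from Cald1, is an actin- and myosin-binding brake. Tpm1 and Tpm2 make both muscle and non-muscle forms, which a value per gene does not separate. Tpm1 measured 45.2, 49.0, 43.6 and 44.4 FPKM in DoxSa 1 to 4, against 54.7, 62.8, 60.3 and 56.2 FPKM in DMSO 1 to 4, giving -0.35 ± 0.05 as log2 fold change (SE; adjusted p = 0.00256). Tpm2 measured 38.4, 43.7, 41.2 and 38.9 FPKM in DoxSa 1 to 4, against 50.3, 53.5, 56.7 and 52.0 FPKM in DMSO 1 to 4, a log2 fold change of -0.38 ± 0.05 (adjusted p = 0.00126). Both fell without overlap. Cald1 was not called, at 62.6 ± 0.970 FPKM in DoxSa and 64.8 ± 4.06 FPKM in DMSO (SD, n = 4 each), a log2 fold change of -0.05 (95% interval -0.14 to 0.05, adjusted p = 0.636).

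Of the 13 ubiquitous isoforms, 5 were called lower, 1 higher and 7 not called, and their median log2 fold change was -0.09. Over all tested genes 2.02% were called lower and 3.88% higher. The cytoplasmic actins were among the 7 isoforms not called. Actb, the gene of beta-actin and the most abundant of the 33, measured 1104, 1149.8, 1099 and 1095 FPKM in DoxSa 1 to 4, against 1204, 1183, 1238 and 1098 FPKM in DMSO 1 to 4, with DMSO 4 inside the DoxSa range. Its log2 fold change was -0.09 (95% interval -0.18 to 0.01, adjusted p = 0.292). Actg1, the gene of cytoplasmic gamma-actin, had 482 ± 18.9 FPKM in DoxSa and 513 ± 51.4 FPKM in DMSO (SD, n = 4 each), a log2 fold change of -0.09 (95% interval -0.23 to 0.05, adjusted p = 0.514). The intervals leave room for a fall of either gene that is smaller than the falls of Acta2 and Actg2.

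The calponins of non-muscle cells fell with Cnn1. Cnn2 measured 88.7, 101, 94.8 and 96.8 FPKM in DoxSa 1 to 4, against 122, 127, 134 and 119 FPKM in DMSO 1 to 4, and no libraries overlapped. The log2 fold change was -0.39 ± 0.05 (SE, adjusted p = 8.34e-04), the largest fall of the ubiquitous group. Cnn3 measured 80.7, 92.7, 86.8 and 83.3 FPKM in DoxSa 1 to 4, against 102, 105, 99.2 and 92.7 FPKM in DMSO 1 to 4. DoxSa 2 and DMSO 4 were level, and the log2 fold change was -0.21 ± 0.05 (adjusted p = 0.0289). That call was lost when any single library other than DMSO 4 or DoxSa 2 was left out (adjusted p between 0.0573 and 0.0837), with no filter on low values (adjusted p = 0.115) and with no intensity trend (adjusted p = 0.0518).

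Tagln2, the transgelin of non-muscle cells, went the other way. It measured 153, 159.7, 149 and 146 FPKM in DoxSa 1 to 4, against 136, 130.4, 141 and 129 FPKM in DMSO 1 to 4, so that all DoxSa libraries lay above all DMSO libraries. The log2 fold change was 0.18 ± 0.04 (SE, adjusted p = 0.0243). It was not called without DMSO 2, DMSO 4, DoxSa 1 or DoxSa 2 (adjusted p between 0.0561 and 0.073), with no filter on low values (adjusted p = 0.0816) or with the replicate number as a block (adjusted p = 0.0507).

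Actn1 and Actn4 encode alpha-actinins, which cross-link actin filaments in stress fibres. Actn1 measured 44.8, 46.0, 46.8 and 45.8 FPKM in DoxSa 1 to 4, against 55.1, 56.6, 56.0 and 53.0 FPKM in DMSO 1 to 4, with little spread in either group. Its log2 fold change was -0.26 ± 0.03 (SE, adjusted p = 0.00103). Actn4 fell less, at 72.2 ± 2.43 FPKM in DoxSa and 79.7 ± 1.90 FPKM in DMSO (SD, n = 4 each), a log2 fold change of -0.14 ± 0.03 (adjusted p = 0.0361). Leaving out any single library other than DMSO 4 or DoxSa 3 ended the Actn4 call (adjusted p between 0.0695 and 0.103), as did the fit with no filter (adjusted p = 0.0748), with no intensity trend (adjusted p = 0.0733) and with the replicate block (adjusted p = 0.0881).

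The non-muscle myosins split. Myh10, the heavy chain of myosin IIB, measured 9.17, 9.19, 9.01 and 9.001 FPKM in DoxSa 1 to 4, against 10.7, 11.97, 10.8 and 11.0 FPKM in DMSO 1 to 4. The DoxSa libraries were nearly identical and all lower, and the fold change on the log2 scale was -0.26 ± 0.04 (SE; adjusted p = 0.00451). Myh9, the more abundant heavy chain of myosin IIA, was not called, at 105 ± 1.42 FPKM in DoxSa and 111 ± 2.88 FPKM in DMSO (SD, n = 4 each), although its groups did not overlap (log2 fold change -0.08, 95% interval -0.15 to -0.01, adjusted p = 0.162). The light chain genes Myl6 (essential) and Myl12a (regulatory) were not called either, with log2 fold changes of -0.05 (adjusted p = 0.566) and -0.06 (adjusted p = 0.483).

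Of the tropomyosins of non-muscle cells, Tpm4 stood at 396 ± 6.45 FPKM in DoxSa and 418 ± 6.89 FPKM in DMSO (SD, n = 4 each). It was not called, though the groups did not overlap (log2 fold change -0.08, adjusted p = 0.183), and was called lower with quantile normalization alone (adjusted p = 0.0342). Tpm3, at 38.4 ± 1.26 FPKM in DoxSa and 36.5 ± 1.13 FPKM in DMSO, was also not called (log2 fold change 0.07, adjusted p = 0.325).

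The adhesion and cross-linking genes were at or below their DMSO levels. Vcl, the gene of vinculin, which ties actin to integrin adhesions, measured 60.5, 60.4, 65.7 and 62.8 FPKM in DoxSa 1 to 4, against 75.9, 79.2, 75.8 and 77.6 FPKM in DMSO 1 to 4, groups set well apart. Its log2 fold change was -0.30 ± 0.04 (SE, adjusted p = 7.77e-04). Flna, the gene of the cross-linker filamin A, measured 96.6 ± 2.24 FPKM in DoxSa and 111 ± 4.69 FPKM in DMSO (SD, n = 4 each), a log2 fold change of -0.19 ± 0.04 (adjusted p = 0.0121). Zyx and Pdlim7, genes of LIM-domain proteins of stress fibres, had log2 fold changes of -0.13 (95% interval -0.22 to -0.04, adjusted p = 0.113) and -0.15 (95% interval -0.25 to -0.06, adjusted p = 0.0605) and were not called. Zyx was called lower without DMSO 4 (adjusted p = 0.0411), and Pdlim7 by voom, with library quality weights and with all 3 rescalings of the libraries (adjusted p between 0.0186 and 0.0471).

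SRF and its cofactors were not called. Srf measured 4.74, 5.08, 4.71 and 5.17 FPKM in DoxSa 1 to 4, against 5.76, 5.36, 5.25 and 4.99 FPKM in DMSO 1 to 4, with DoxSa 2 and DoxSa 4 above the lowest DMSO library. Its log2 fold change was -0.10 (95% interval -0.21 to 0.01, adjusted p = 0.327). Mrtfa measured 8.04 ± 0.496 FPKM in DoxSa and 8.53 ± 0.448 FPKM in DMSO (SD, n = 4 each), a log2 fold change of -0.08 (95% interval -0.19 to 0.04, adjusted p = 0.465). Mrtfb measured 2.21 ± 0.120 FPKM in DoxSa and 2.21 ± 0.0931 FPKM in DMSO, with a log2 fold change of -0.00038 and a 95% interval of -0.11 to 0.11 (adjusted p = 0.998).

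The muscle-type genes were also set against Srf itself, a comparison added after the values were seen: the log2 ratio of each to Srf was taken in every library. It was lower in DoxSa with no overlap for 6 of the 10 genes: Cnn1 (difference -1.10), Myh11 (-0.92), Actg2 (-0.85), Lmod1 (-0.68), Myl9 (-0.57) and Acta2 (-0.53). Each of these gave p = 0.0286 by an exact two-sided permutation test, the smallest the 70 assignments allow with 4 libraries per group (adjusted p = 0.0477 over the 10 ratios). All 6 genes were called lower without overlap in these same data, while Srf was not called. The p-values of the ratios to Srf therefore give no separate support. The ratios of Tagln, Mylk, Des and Smtn to Srf did not pass, with differences of -0.23, -0.19, -0.05 and 0.06 (adjusted p = 0.0816, 0.143, 0.83 and 0.444).

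**Figure D3:**
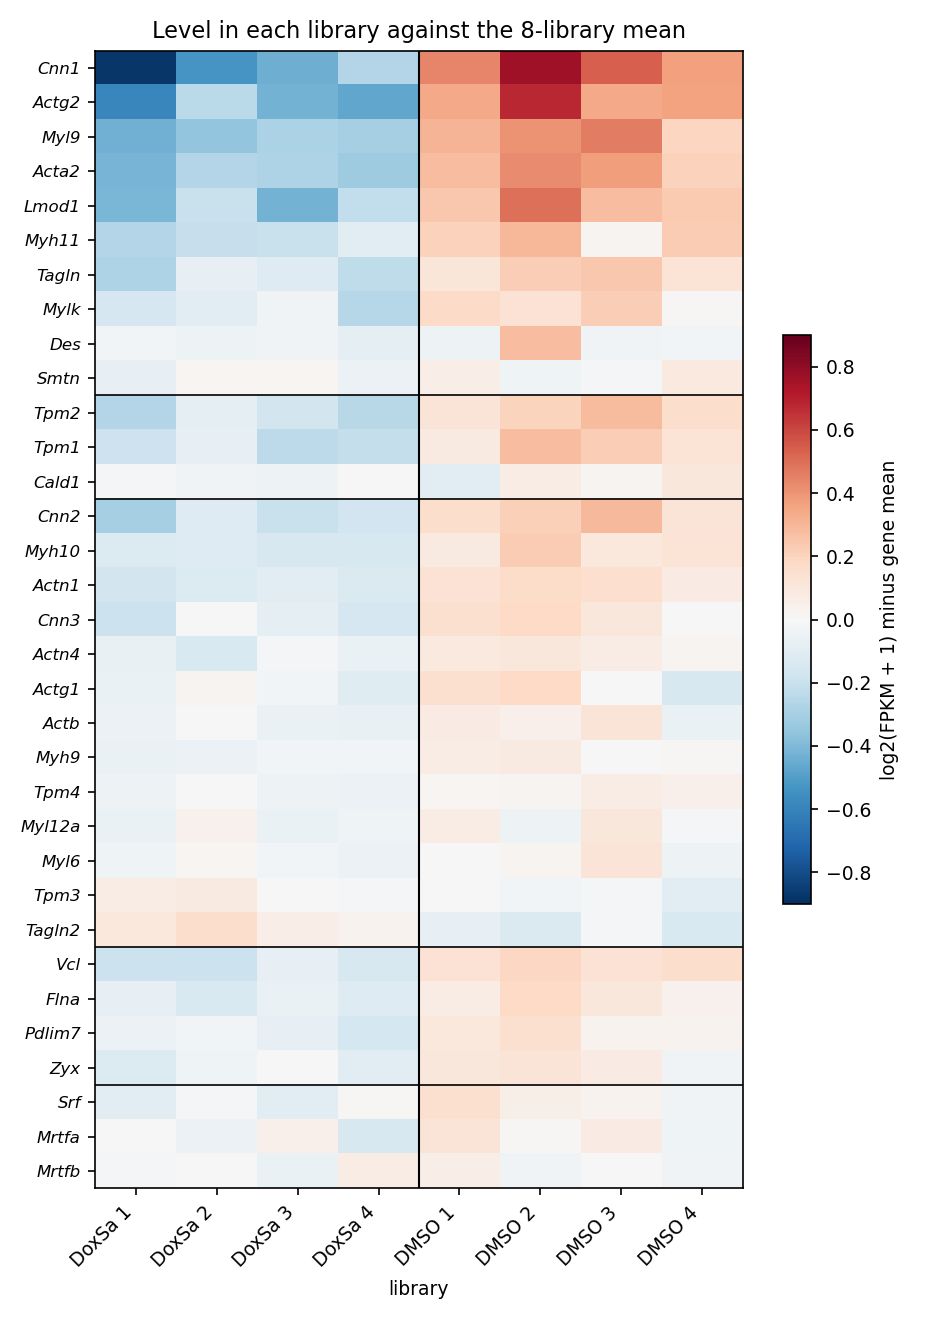
Heat map of all 33 genes (rows, by class) in the 8 libraries (columns, 4 DoxSa then 4 DMSO), where colour gives log2(FPKM + 1) minus the mean of the gene over the 8 libraries, blue for lower. The deepest blue and red fall in the top rows, led by Cnn1 and Actg2 (red is higher), while the 3 rows of Srf, Mrtfa and Mrtfb stay pale.

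Paralogs within a library were compared directly, since their ratio does not depend on how libraries are scaled. In all 10 pairs the ratio of the muscle-type gene to its ubiquitous relative was lower in DoxSa, with no overlap, each at p = 0.0286 by an exact two-sided permutation test (n = 4 per group, adjusted p = 0.0286 over the 10 pairs, the smallest the design allows). Pairs share genes and are not independent. Their muscle-type genes, Acta2, Actg2, Cnn1, Tagln, Myl9 and Myh11, were all called lower without overlap in these same data. The p-values of the ratios therefore give no separate support. Mylk, Lmod1 and the genes that were not called, Smtn and Des, had no pair. The log2 ratio of Tagln to Tagln2 was 0.59, 0.73, 0.79 and 0.71 in DoxSa 1 to 4, against 1.15, 1.32, 1.22 and 1.23 in DMSO 1 to 4, a difference of -0.53. That of Myl9 to Myl12a averaged -1.51 ± 0.09 in DoxSa and -0.88 ± 0.11 in DMSO (SD, n = 4 each), a difference of -0.63. The ratios of Acta2 to Actb and to Actg1 both differed by -0.56, and those of Actg2 to the same genes by -0.88.

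Cnn1 lost ground even to calponins that fell themselves, with a difference of -0.82 against Cnn2 and -1.001 against Cnn3. For Myh11 the differences were -0.95 against Myh9 and -0.75 against Myh10. The DMSO library nearest to the DoxSa range was DMSO 3 for both Myh11 ratios, at -4.11 against Myh10 where DoxSa 4 stood at -4.17, so those 2 groups were only just apart. The Myh11 to Myh10 difference no longer passed when any single library other than DoxSa 4 or DMSO 3 was left out (adjusted p = 0.0571, exact permutation test) or with a pseudocount of 1 in the ratio (adjusted p = 0.0857).

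**Figure D4:**
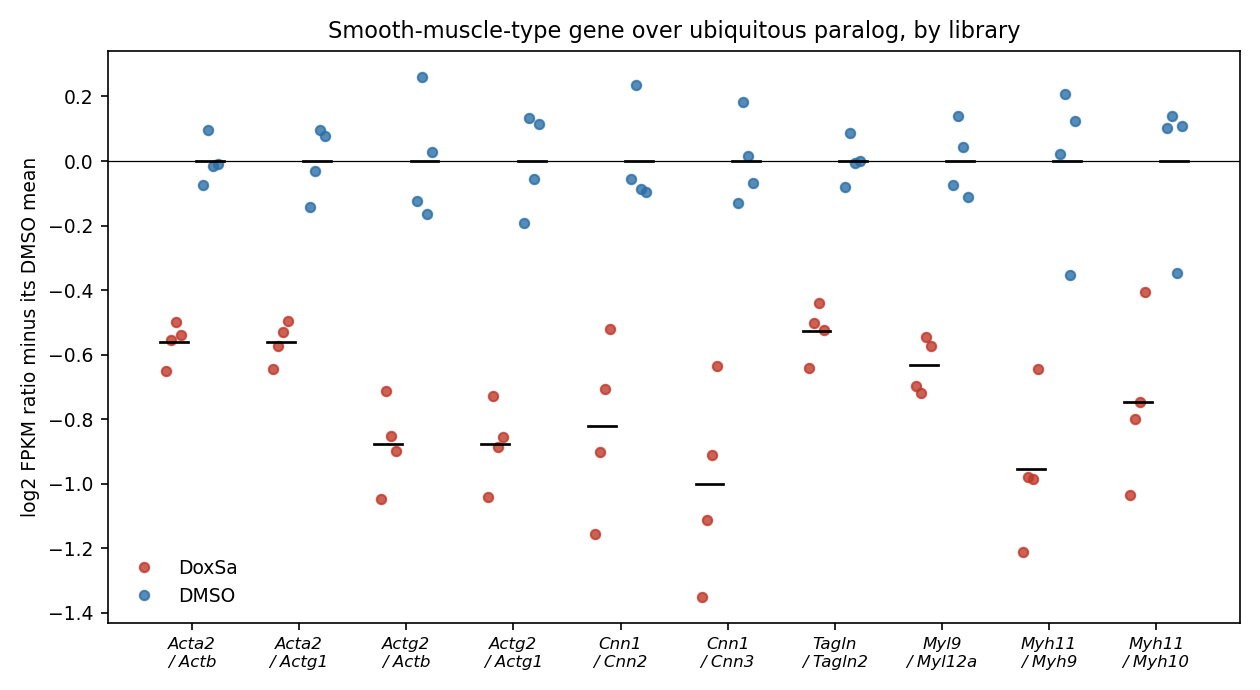
Log2 ratio of FPKM of a smooth-muscle-type gene to a ubiquitous paralog, minus its mean in DMSO (vertical axis), for 10 pairs, 1 point per library with the group mean as a bar. DoxSa points (left of each pair) lie below DMSO points in all 10 pairs, with mean differences from -0.53 (Tagln to Tagln2) to -1.001 (Cnn1 to Cnn3).

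The make-up of each paralog pool is given here as shares of summed FPKM with no further test. Acta2 made up 10.3 ± 0.397% of the 4 actins in DoxSa and 14.5 ± 0.554% in DMSO (SD, n = 4 each), while Actb made up 62.3 ± 0.569% in DoxSa and 59.2 ± 1.49% in DMSO. Myl9 supplied 26.0 ± 1.15% of the Myl9 and Myl12a pool in DoxSa and 35.3 ± 1.80% in DMSO. Tagln stayed the larger part of its pool, with 62.0 ± 1.38% in DoxSa and 70.1 ± 1.00% in DMSO. Cnn1 was a minor calponin in both groups, at 2.41 ± 0.464% in DoxSa and 4.37 ± 0.433% in DMSO, and Myh11 a trace of the myosin heavy chains, at 0.353 ± 0.0587% in DoxSa and 0.674 ± 0.107% in DMSO. Tpm4 was the main tropomyosin, with 76.1 ± 0.472% in DoxSa and 73.8 ± 0.739% in DMSO. Summed over the 10 smooth-muscle-type genes, the level ranged from 501 to 564 FPKM in DoxSa and from 727 to 816 FPKM in DMSO, and over the 13 ubiquitous isoforms from 3575 to 3766 FPKM in DoxSa and from 3631 to 3984 FPKM in DMSO, where the groups overlapped.

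The libraries also varied within groups. Among the 17 genes called lower, DoxSa 1 was the lowest DoxSa library for 10 and DoxSa 2 the highest for 9, while DMSO 2 was the highest DMSO library for 12 and DMSO 4 the lowest for 10. The coefficient of variation within a group was largest in the smooth-muscle class, with a median of 7.05% in DoxSa and 9.27% in DMSO, against 3.28% in DoxSa and 4.62% in DMSO for the ubiquitous isoforms.

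Some genes share sequence with others, and the counting could divide or lose such reads. Of the 33 genes, 15 had no stretch of 75 bases in common with transcripts of another gene in the GENCODE M21 annotation, including Acta2, Actg2, Cnn1, Myl9, Myh11, Lmod1, Srf and Mrtfa. The share was 42.7% for Actg1 and 33.3% for Tpm3 (mostly Gm12715 and Tpm3-rs7), 40.3% for Tagln (mostly Gm48529), 37.9% for Vcl (Ap3m1) and 21.7% for Myl12a (mostly Myl12b). Whether the reads keep strand is not given in the sources used here, so reads of a gene and of an antisense or overlapping neighbour may be mixed. Neither Ap3m1, between 18.5 and 20.6 FPKM in DoxSa and between 18.4 and 19.8 FPKM in DMSO, nor Myl12b was called (adjusted p = 0.786 and 0.962).

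Further genes of the contractile apparatus that were not among the 33 were listed by function. Of 23 such genes 15 were tested, and 5 fell and 0 rose, with a median log2 fold change of -0.11. Over all tested genes 2.02% were called lower and 3.88% higher. Fhl2, which encodes a LIM-domain protein of stress fibres, measured 19.2, 20.4, 21.5 and 23.3 FPKM in DoxSa 1 to 4, against 29.4, 30.7, 31.3 and 29.4 FPKM in DMSO 1 to 4. The DoxSa libraries all stayed below the tight DMSO group, and the fold change on the log2 scale was -0.50 ± 0.05 (SE; adjusted p = 3.81e-04). Csrp1, the gene of a cysteine-rich LIM protein, fell with -0.19 ± 0.03 (adjusted p = 0.00479) and Pdlim1, a LIM gene related to Pdlim7, with -0.27 ± 0.05 (adjusted p = 0.0132). Pdlim1 was not called when low values were not filtered (adjusted p = 0.0656). Of the 5 calls, only those of Fhl2 and Csrp1 held in every setting. The remaining 8 listed genes, among them the cardiac actin gene Actc1, were below the minimum in level.

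Of 31 genes of actin filament turnover, 2 fell and 1 rose, with a median log2 fold change of 0.02, where 5.90% of all tested genes were called. The groups did not overlap for 7 of the 31, of which 2 were lower and the rest higher. Over all tested genes that share was 12.5%, with 4.71% lower and 7.80% higher. Fscn1, the gene of the bundling protein fascin, fell with -0.34 ± 0.04 (SE; adjusted p = 7.59e-04) and Dstn, the gene of the severing protein destrin, with -0.19 ± 0.04 (adjusted p = 0.0195). The Dstn call was lost when DoxSa 1 or DoxSa 3 was left out and when low values were not filtered (adjusted p between 0.0588 and 0.0749). Capg, a filament-capping gene that is prominent in macrophages, rose with 0.18 ± 0.03 (adjusted p = 0.0113).

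Other partners and quick targets of SRF did not share 1 direction. The ternary complex factors Elk1, Elk3 and Elk4, which SRF uses in place of MRTF, were not called, with log2 fold changes of -0.11, 0.07 and -0.00405 (adjusted p = 0.241, 0.433 and 0.981). Myocd, the gene of myocardin, the SRF cofactor of smooth muscle, was below the minimum, between 0.0302 and 0.0615 FPKM in DoxSa and between 0.0766 and 0.171 FPKM in DMSO. Of 7 tested early genes, 2 fell and 2 rose, where 2.02% of all tested genes were called lower and 3.88% higher. Ccn2, which encodes a matricellular growth factor that MRTF and YAP also drive, measured 95.4, 109.8, 111.5 and 115.5 FPKM in DoxSa 1 to 4, against 155, 165, 152 and 154 FPKM in DMSO 1 to 4, groups set far apart, and the fold change on the log2 scale was -0.53 ± 0.05 (SE; adjusted p = 3.12e-04). Its relative Ccn1 fell with -0.27 ± 0.07 (adjusted p = 0.0387), a call lost when any single library other than DMSO 2, DMSO 4 or DoxSa 3 was left out, with no filter, with no intensity trend and with the replicate block (adjusted p between 0.0613 and 0.163).

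Egr2 and Junb, early genes that growth factors switch on, rose with 0.34 ± 0.07 (SE, adjusted p = 0.0195) and 0.31 ± 0.06 (adjusted p = 0.0156). Egr2 was not called without DMSO 2, DoxSa 1 or DoxSa 2, nor with no filter (adjusted p between 0.0536 and 0.0902), and Junb not without DoxSa 2 nor with no filter (adjusted p = 0.0529 and 0.0877). Egr1, Fos and Ier2 varied widely among the DMSO libraries and were not called, with log2 fold changes of 0.43, 0.24 and 0.18 (adjusted p = 0.358, 0.48 and 0.398).

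**Figure D5:**
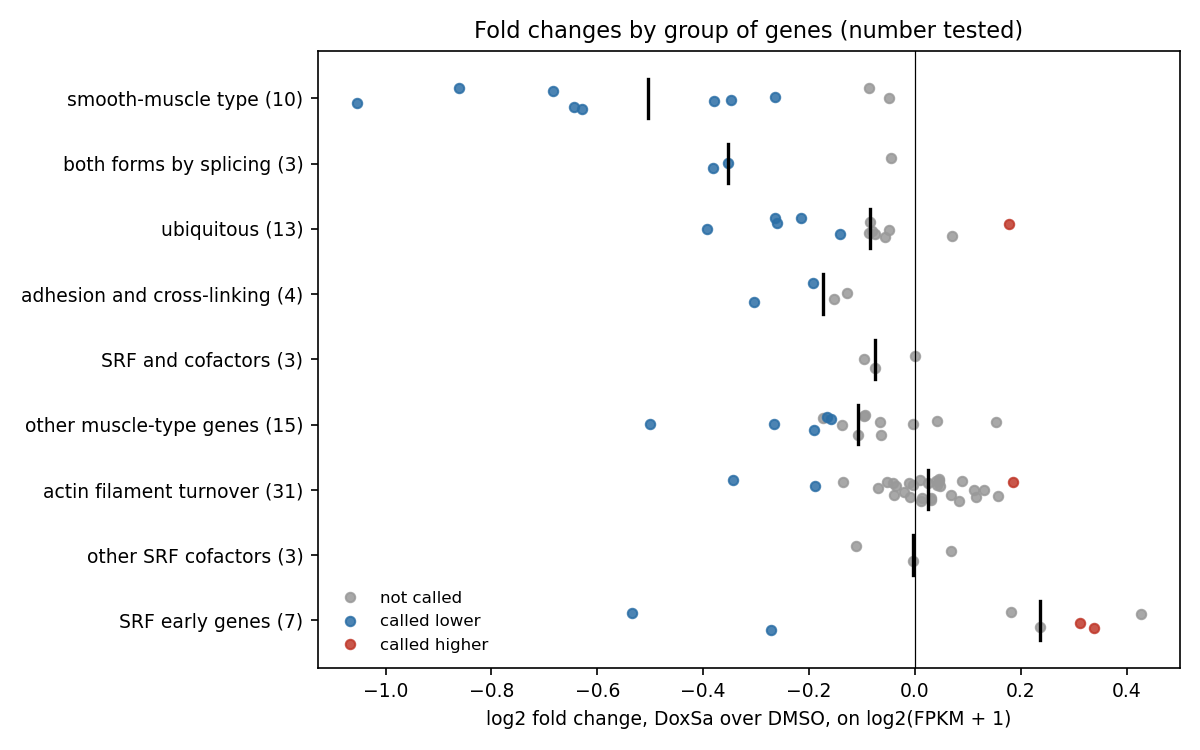
Log2 fold change of DoxSa over DMSO on log2(FPKM + 1) (horizontal axis) for the 5 classes of the 33 genes and for 4 further lists, 1 point per tested gene with the median as a bar; colour marks genes called lower or higher. Medians lie between -0.50 in the smooth-muscle class and 0.24 for the SRF early genes, where 2 genes were called each way, and the median is 0.02 for actin filament turnover.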

How the data were processed

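The submitters' processing notes name the tools HISAT2 and HTSeq and the build GRCm39. Their versions, the annotation and the strand setting: not given in the sources used here. FPKM per gene and library came from 1 table as deposited. Because FPKM steps by the worth of 1 read, library totals and reads could be recovered: for 12060 of 12060 tested genes all 8 values were whole reads within 0.001. The main test was limma 3.58.1 (R 4.3.3) on log2(FPKM + 1) with an intensity trend, over genes whose 8-library mean reached 0.5 FPKM, with no further scaling and no covariate; SE and 95% intervals are moderated. Single ratios were tested by exact two-sided permutation over 70 assignments. Ratios to Srf were added after values were seen. The members, their classes and the lists were chosen with earlier results of these data known. All 33 members are named; from other lists, up to 3 called genes a direction by adjusted p, and all SRF cofactors and early genes; Actc1, Ap3m1, Myl12b and the marker genes were named beyond that rule. Alternatives were another pseudocount, filters, normalizations, weights, voom on recovered reads, a replicate block and leaving out each library. The fits were checked on simulated data. One further list of genes is not reported here, but its genes remain in the counts of pathway genes called. Other steps used Python 3.11.15. No coordinates from the files' build are given; promoters are RefSeq, GRCm38.p6.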

Additional observations from a re-analysis of the deposited data

Results flagged for a closer look

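In 66 groups of 4 libraries, 1 per gene and treatment, 5 held a library whose gap to its nearest neighbour, as a part of the range of the group, was above Dixon's 95% critical value for 4 samples (0.83, rounded). At that value chance alone gives about 1 in 20 groups. DMSO 2 was high for 3 smooth-muscle-type genes: Actg2 measured 14.5 FPKM there and between 11.3 and 11.5 FPKM in the other DMSO libraries, Lmod1 measured 5.89 FPKM against 4.76 to 4.94 FPKM, and Des 1.41 FPKM against 0.926 to 0.956 FPKM. DoxSa 2 was high for 2 ubiquitous genes, with Myl12a at 232 FPKM there and between 217 and 219 FPKM in the other DoxSa libraries, and Tpm4 at 406 FPKM there and at most 394 FPKM in the others. Actg2 and Lmod1 kept their calls without DMSO 2.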

How the results depend on the processing

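The number of members called lower stayed between 14 and 19 over the 18 alternatives, 14 to 18 when 1 library was left out. The 1 member called higher, Tagln2, became 0 with no filter on low values, with the replicate block and without some libraries (range 0 to 1). Over all tested genes, 158 were higher and 108 lower with no filter, and 233 to 490 higher and 152 to 235 lower when 1 library was left out, moved by over 1.5 times for the higher without DoxSa 1 (247), DoxSa 2 (233) or DoxSa 3 (308) and for the lower without DMSO 2 (158), DoxSa 1 (154) or DoxSa 2 (152). Pathway genes called higher numbered 3, but 1 with no filter, 5 by voom and 1 to 4 when 1 library was left out. The median of the smooth-muscle-type class was -0.64 with a minimum of 2 FPKM, which drops Myh11 and Des, -0.67 with a pseudocount of 0.1 and -0.67 by voom, and -0.53 to -0.46 when 1 library was left out. The median paralog ratio difference of -0.78 was -0.59 with a pseudocount of 1 in the ratio. Mrtfb, at -0.00038, changed sign without DMSO 1 (0.0186), DMSO 3 (0.00112), DoxSa 1 (0.00338) or DoxSa 3 (0.0197), never called, within -0.0234 to 0.0197 over single libraries left out. No scaling moved the median of all genes by more than 0.1. Same-numbered libraries did not deviate together over all tested genes: their correlations across genes were -0.06, 0.05, -0.10 and 0.07. Among the 33 members, DoxSa 2 and DMSO 2 were each the highest of their group for 17. The labels do not say what a replicate number stands for, and these correlations cannot settle it. With the replicate block 16 members were called lower and 0 higher, and the paralog ratios cannot go below p = 0.125 in an exact sign-flip permutation test. The Myh11 to Myh10 ratio lost its result in 8 of 11 alternatives, each other pair in 1 of 11, the replicate block. Depth limits Myh11 (91 to 254 reads in a library) and Des (112 to 169).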
